A study of Mus musculus with 6 samples.

Results

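The genes described here are 10 members of the STAT5 pathway, measured by 26 of the 45101 probe sets on each array. A probe set is a group of short probes that together report 1 transcript. The members were taken by name from the platform's probe-to-gene table, and 0 of the probe sets that carry several gene symbols named any of them. 4 members act upstream (Ghr, Jak2, Stat5a and Stat5b, 9 probe sets) and 6 are target or feedback genes (Cish, Socs1, Socs2, Socs3, Pim1 and Bcl2l1, 17 probe sets). RNA came from 6 subcutaneous tumours grown from KPC1199, a line of mouse pancreatic ductal adenocarcinoma cells, 3 from lactating mice and 3 from control mice. Mice of the lactation group received the cells when pregnant or at the start of nursing, all tumours were taken 20 days after injection from animals of 1 age, and strain and genotype are not given in the sources used here. Which lactation mice were pregnant at injection is not stated, so growth in pregnancy and in nursing cannot be told apart.

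STAT5A and STAT5B are paired transcription factors that wait in the cytoplasm until a cytokine receptor is engaged. Prolactin, growth hormone and several haematopoietic cytokines bind receptors that carry JAK2 or another Janus kinase, which phosphorylates STAT5 so that it dimerises and enters the nucleus. Among the genes it switches on are Cish and the Socs genes, whose products damp the same receptors. In the mammary gland this route drives alveolar growth and milk protein synthesis. The arrays measured transcripts and not STAT5 phosphorylation, and in bulk tumour RNA fewer cells of a type and less RNA per cell cannot be told apart.

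STAT5 dimers bind the palindrome TTCNNNGAA, which reads the same on both strands. RefSeq promoter windows of 300 bases, 250 before and 50 after a start site (GRCm38.p6), were at hand for 9 of the 10 members in 15 windows, with no entry for Socs2. The motif lay in 2 of these 15 windows, 1 of Cish and 1 of Socs3, and in 8.3% of all 32851 windows. The Cish window held it 2 times, at the annotated start site and 11 bases further on, which 0.457% of all windows did at least 2 times. The first sequence below covers chr9:107296409-107296688 on the plus strand and the other covers chr11:117969367-117969616 on the minus strand. They are the first 280 bases of the Cish window and the first 250 of the Socs3 window, without the 50 after its start site. These member windows are shown because they hold the motif, which is in capitals.
Cish: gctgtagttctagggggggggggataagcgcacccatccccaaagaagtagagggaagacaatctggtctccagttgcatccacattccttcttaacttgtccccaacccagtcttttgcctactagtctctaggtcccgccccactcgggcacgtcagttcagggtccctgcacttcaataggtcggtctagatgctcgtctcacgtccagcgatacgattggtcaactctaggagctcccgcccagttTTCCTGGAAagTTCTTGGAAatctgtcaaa
Socs3: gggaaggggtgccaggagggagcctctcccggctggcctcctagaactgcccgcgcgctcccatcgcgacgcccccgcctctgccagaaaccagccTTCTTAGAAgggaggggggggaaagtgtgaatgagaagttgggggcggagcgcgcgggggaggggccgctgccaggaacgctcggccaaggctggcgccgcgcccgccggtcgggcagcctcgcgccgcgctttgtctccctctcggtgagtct
In Socs3 the motif begins 154 bases before the start site. A match describes the letters only, and the arrays do not measure binding.

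None of the 10 genes passed the test between lactation and control. In limma's fit over 11623 genes, 0 members had a Benjamini-Hochberg adjusted p under 0.05 and 0 had an unadjusted p under 0.05. Over all tested genes 0% were called higher and 0% lower at the adjusted threshold, and 1.51% were higher and 0.766% lower at the unadjusted one. The log2 differences of the members ran from -0.18 for Cish to 0.25 for Pim1, with a median of -0.002 beside -0.005 over all genes tested. 5 members had a higher mean in lactation and 5 a lower one. Jak2 alone among the 10 had groups that did not overlap, higher in lactation. Over all tested genes 3.71% were higher and 3.19% lower without overlap, 6.9% in all. Every value below is a MAS5 signal on a linear scale, and every difference is lactation minus control on the log2(signal + 16) scale, from 3 arrays against 3. The probe set of highest mean stands for a gene unless another is named, and for all 10 members it reached the array's median signal on all 6 arrays.

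**Figure D1:**
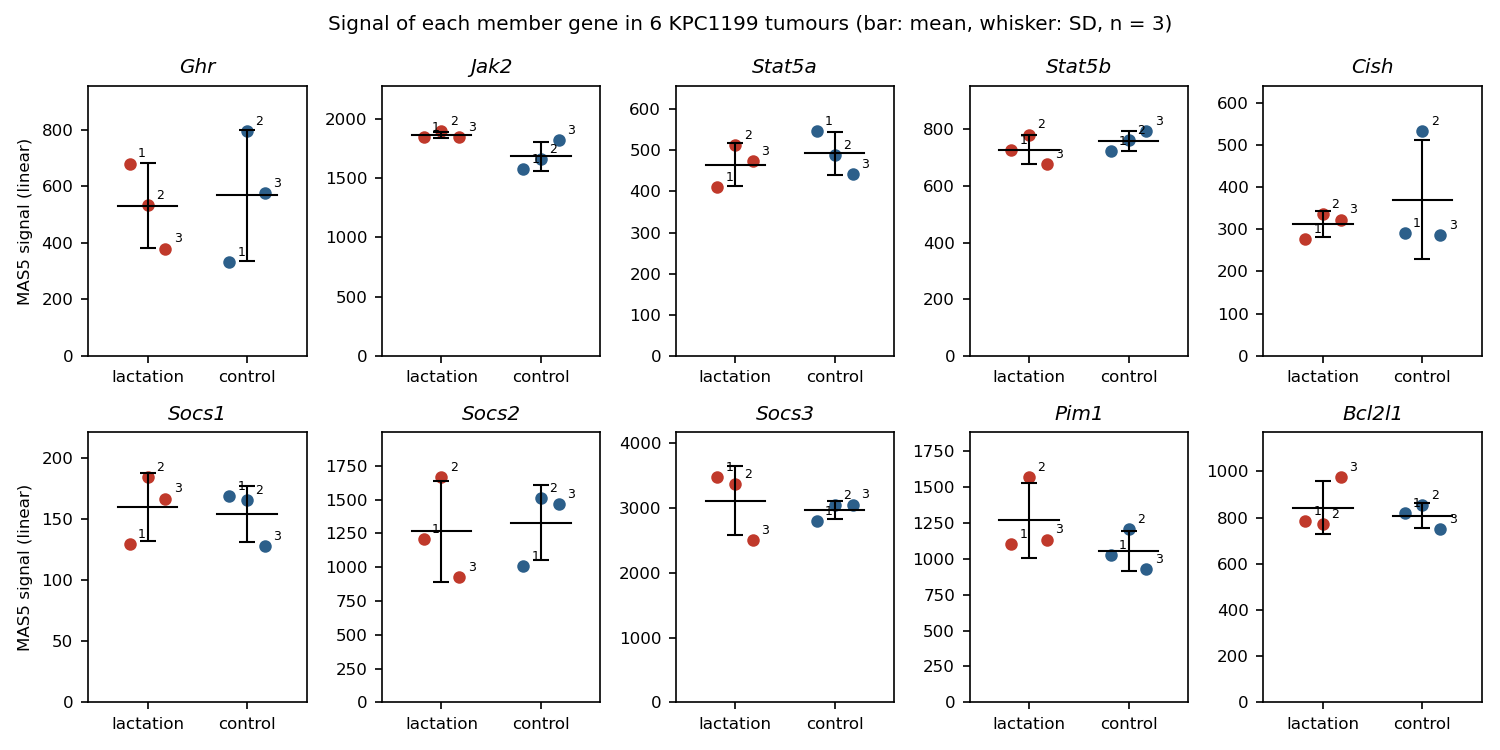
MAS5 signal (linear, vertical axis from 0) of each member's highest-mean probe set on the 3 lactation and 3 control arrays. Points are single tumours numbered by replicate, and lines and whiskers are group means and SDs. The groups overlap in every panel but that of Jak2, where the lactation arrays lie from 1845 to 1896 and the controls from 1575 to 1817.

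Ghr encodes the growth hormone receptor, which signals through JAK2 and STAT5. Its signal (probe set 1417962_s_at) was 679.8, 532.7 and 378.7 in lactation replicates 1, 2 and 3 and 332.7, 794.8 and 576.1 in control replicates 1, 2 and 3. Each group held both high and low tumours, and the highest signal was 2.39 times the lowest. The difference was -0.05 with a standard error of 0.33 and a 95% interval from -0.84 to 0.74 (limma, adjusted p = 1). That interval spans from 0.559-fold to 1.67-fold, so a change of moderate size in either direction was not detectable with 3 arrays a group. Leaving out lactation replicate 3 turned it to 0.165, leaving out control replicate 2 or 3 gave 0.228 or 0.001, and leaving out control replicate 1 gave -0.381. The residual SD of Ghr within groups was 0.523, and 5.65% of tested genes had a larger one, against a median of 0.164 over all tested genes.

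Jak2 encodes the kinase bound to the growth hormone, prolactin and erythropoietin receptors. It measured (probe set 1421066_at) 1845, 1896 and 1846 in lactation and 1575, 1660 and 1817 in controls. The lactation arrays were close together and each lay above all controls, though control replicate 3 came near them. The difference was 0.15 with a standard error of 0.08 and a 95% interval from -0.05 to 0.34, and limma's adjusted p was 1. The second Jak2 probe set measured 637.2, 664.6 and 743.9 against 751.9, 576.4 and 703.7, with overlapping groups and a difference of 0.02. The difference of the first therefore stood on 1 of the gene's 2 probe sets. With the mean of both it was 0.081.

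Neither factor gene passed the test. Stat5a (probe set 1421469_a_at) measured 410.3, 511.8 and 474.1 in lactation and 547.0, 488.7 and 442.9 in controls. Its difference was -0.08 with a 95% interval from -0.39 to 0.23, and 0.004 without lactation replicate 1. Stat5b, its neighbour on the chromosome, measured (probe set 1422103_a_at) 725.6, 780.6 and 676.5 against 722.2, 762.2 and 793.3. The groups overlapped for both genes, and the highest Stat5b signal was 1.17 times the lowest. The Stat5b difference was -0.06 with a 95% interval from -0.29 to 0.17, so changes beyond 0.815-fold or 1.13-fold lie outside the interval. The dimmer Stat5b probe set, at or above the array median on 3 of 6 arrays, had a difference of 0.24 with an interval from -0.31 to 0.80.

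Cish encodes a protein with an SH2 domain that occupies activated cytokine receptors, and its transcript is a common readout of STAT5 activity. It had 1 probe set (1448724_at), with signals of 277.5, 336.2 and 322.6 in lactation and 290.7, 532.8 and 286.6 in controls. 5 of the 6 tumours lay between 277.5 and 336.2, and control replicate 2 stood above them. The means were 312.1 ± 30.7 and 370.1 ± 141.0 (SD, n = 3 in each group). The difference was -0.18 with a standard error of 0.25 and a 95% interval from -0.76 to 0.40 (limma, adjusted p = 1). Without control replicate 2 it was 0.103, so its sign rested on that tumour.

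Socs2 encodes a restraint on the growth hormone receptor. Its signal (probe set 1449109_at) was 1206, 1664 and 926.8 in lactation and 1011, 1513 and 1465 in controls. 3 tumours were high (lactation replicate 2 and control replicates 2 and 3) and 3 were lower, across both groups. The difference was -0.09 with a standard error of 0.24. Leaving out lactation replicate 3 or control replicate 2 turned it to 0.113 or 0.015, and leaving out lactation replicate 2 gave -0.304. A second bright Socs2 probe set had 1384 in lactation replicate 2 and 819.0 to 918.1 in the other lactation arrays, and 907.9, 1138 and 1145 in controls, with the same 3 tumours high. The other 4 Socs2 probe sets were dim, from 20.2 to 164.2, with differences between -0.11 and 0.03.

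Socs1, whose product inhibits Janus kinases directly, measured (probe set 1450446_a_at) 129.2, 184.0 and 166.7 in lactation and 168.7, 165.7 and 127.7 in controls. The groups covered nearly the same range, and the difference of 0.05 had a 95% interval from -0.43 to 0.52. Leaving out lactation replicate 2 or control replicate 3 turned it to -0.053 or -0.071. Socs3, best known as the brake on STAT3 downstream of gp130, measured (probe set 1455899_x_at) 3465, 3361 and 2496 against 2798, 3043 and 3046. Controls lay inside the range of the lactation arrays, of which replicate 3 was the lowest of all 6. The Socs3 difference was 0.05 with a 95% interval from -0.26 to 0.37. It was -0.031 without lactation replicate 1, -0.009 without lactation replicate 2 and 0.204 without lactation replicate 3. Its other probe sets had differences of -0.13 and -0.003.

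Pim1 encodes a serine/threonine kinase that promotes survival and is induced by STAT5 and STAT3. Its signal (probe set 1435458_at) was 1099, 1564 and 1133 in lactation and 1022, 1204 and 927.8 in controls. Lactation replicate 2 stood above the other tumours, and the remaining values of the groups overlapped. The difference of 0.25, the largest among the members, had a standard error of 0.17 and a 95% interval from -0.14 to 0.64 (limma, adjusted p = 1). It was 0.093 without lactation replicate 2 and 0.089 with the mean of the probe sets. The second Pim1 probe set measured 498.7, 547.6 and 463.3 against 508.7, 501.1 and 582.6, a difference of -0.075.

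Bcl2l1 encodes the survival protein Bcl-xL. It measured (probe set 1420888_at) 786.3, 770.8 and 973.8 in lactation and 820.9, 855.2 and 751.6 in controls, and lactation replicate 3 was the highest. The difference was 0.05 with a 95% interval from -0.23 to 0.34, and -0.053 without lactation replicate 3. Of its other 3 probe sets 1 was at or below 19.6 on every array, and the others had differences of 0.17 and -0.22. The first of these was -0.192 without control replicate 2, where its signal was 117.9 against 185.6 to 271.1 elsewhere.

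Among all 26 probe sets 10 had a positive and 16 a negative difference, with a median of -0.055 beside 0.008 over all 45101. None had an unadjusted p under 0.05 in limma's fit over all probe sets, where 2.04% were higher and 1.33% lower at that threshold. The Jak2 probe set described above was the 1 whose groups did not overlap, where 4.57% of all probe sets were higher and 3.49% lower without overlap, 8.06% in all. Differences ranged from -0.27 to 0.25, and all 26 intervals held 0. The 95% intervals were widest for the dimmest Ghr probe set, from -1.27 to 1.05. Suffixes _s_at and _x_at, carried by 1 probe set of Ghr, 1 of Socs2 and 2 of Socs3, mark probes that can match other transcripts.

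**Figure D2:**
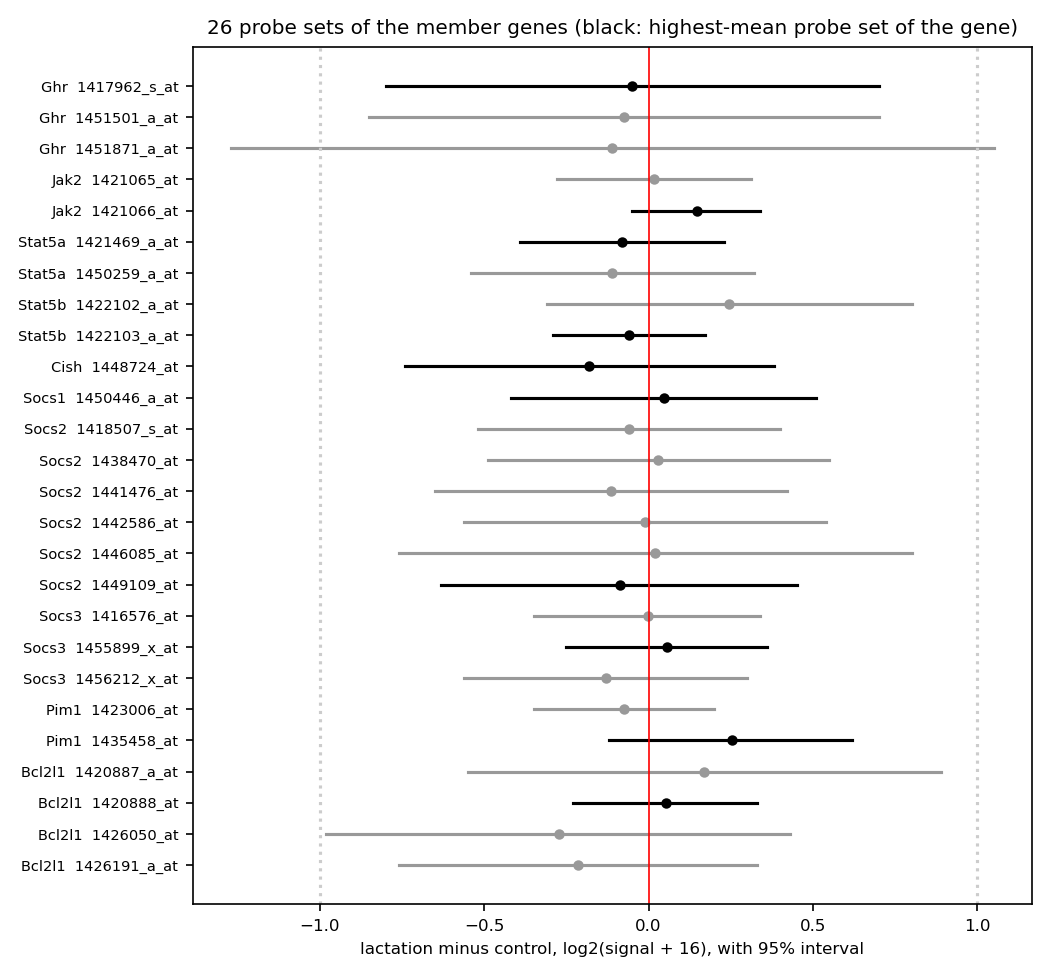
Log2 difference, lactation minus control, of the 26 probe sets of the member genes (points) with limma's 95% intervals (lines). Black marks the highest-mean probe set of a gene, dotted lines mark a log2 difference of 1 either way, and every interval crosses the red line at 0.

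For 8 of the 10 members the log2 difference between the groups was smaller than the residual SD between tumours of a group; the exceptions were Jak2 and Pim1. Lactation replicate 2 had the highest signal of all 6 arrays for 4 of the 10 members (Jak2, Socs1, Socs2 and Pim1) and was first or second for 8. Control replicate 2 was first for Ghr and Cish and first or second for 5. Lactation replicate 3 and control replicate 3 were each the lowest for 3. These counts describe 6 arrays and carry no test.

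Marker genes of the ductal tumour cells and of other cell types also differed between these tumours. All 7 ductal tumour markers, such as Krt19 and Epcam, lay above the level filter, with summed signals of 62184 to 83431 in lactation and 58410 to 72067 in controls. All 7 skeletal muscle markers passed it too, with sums of 12474 to 72811 and 9047 to 71575. 5 of 7 adipocyte markers were measured, 4 above the filter, with sums of 3250 to 5342 and 2561 to 6930. The 7 macrophage markers summed to 26208 to 37641 and 35150 to 41880, and the 6 measured of 7 T cell markers to 1205 to 1654 and 1130 to 2278. By gene, all 7 macrophage markers had a lower mean in lactation, with a median difference of -0.267. Groups of C1qb and Itgam did not overlap, where 3.19% of all tested genes were lower without overlap. All 7 ductal markers had a higher mean, with a median of 0.187. The tested muscle, adipocyte and T cell markers each went both ways, and no marker passed the adjusted test. No marker was listed at 0. Of 9 markers of mammary secretory epithelium 2 passed the filter, Btn1a1 and Xdh. The sums of all 9 were 3163 to 5434 and 3098 to 3584, of which Xdh alone gave 2806.5 to 4047.3. The part of these cells in the members' signals was not tested.

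For Ghr the 2 highest arrays, control replicate 2 and lactation replicate 1, were the 2 with the highest muscle sums, 71575 and 72811, where the other arrays had 9047 to 29399. This was not particular to muscle. The same 2 arrays had the highest adipocyte sums, 6930 and 5342, and the highest T cell sums, 2278 and 1654. By mean log2 level of adipocyte markers lactation replicate 2, at 8.96, came above lactation replicate 1, at 8.6. Control replicate 3 had the lowest muscle sum and yet a Ghr signal of 576.1. Control replicate 1, lowest for Ghr, was also lowest for adipocyte markers at 2561, and all 3 Ghr probe sets were lowest there and second lowest in lactation replicate 3. Their highest array was control replicate 2 in each case.

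The 3 arrays high for Socs2 were the 3 with the highest mean log2 level of macrophage markers (11.87, 11.82 and 11.58 against 11.07 to 11.53) and the lowest of ductal markers (12.2, 12.39 and 12.35 against 12.67 to 12.89). The macrophage level of lactation replicate 2, 11.58, was close to the 11.53 of lactation replicate 1. By mean log2 level the same 3 arrays were also highest for fibroblast markers (13.09, 13.51 and 13.11 against 12.92 to 13.0). By summed signal they were not, as lactation replicate 3 had 84622, above lactation replicate 2 at 84511 and control replicate 2 at 79695. Cish was highest in control replicate 2, which also had the highest sums of T cell (2278 against 1130 to 1654 elsewhere), adipocyte (6930) and macrophage (41880) markers and the second-highest muscle sum (71575). Jak2, Pim1, Socs1 and Socs2 were highest in lactation replicate 2. Of the 9 mammary markers 3 casein genes, named after their values were seen and under the level filter, were higher there than on the other 5 arrays: Csn2 at 332.9 against 1.96 to 27.0, Csn1s1 at 358.7 against 2.63 to 13.1 and Csn3 at 396.2 against 53.9 to 76.3. The casein gene Csn1s2a was near the others at 37.7 against 11.0 to 32.7, and the milk gene Lalba had 57.0 against 6.22 to 20.2. Lalba, also under the filter, was higher in lactation without overlap, at 20.2, 57.0 and 12.4 against 11.1, 7.61 and 6.22. Groups of the other mammary markers overlapped, and over all probe sets 8.06% did not overlap. Wap and Glycam1 were not highest there. Of the 2 mammary markers above the filter, Xdh was highest there, at 4047.3 against 2806.5 to 3784.2. The other, Btn1a1, was not, at 151.8 against 108.7 to 179.2. Without this array the Pim1 difference was 0.093, that of Socs2 -0.304 and that of Jak2 0.134, and that of Socs1 changed sign as given above.

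**Figure D3:**
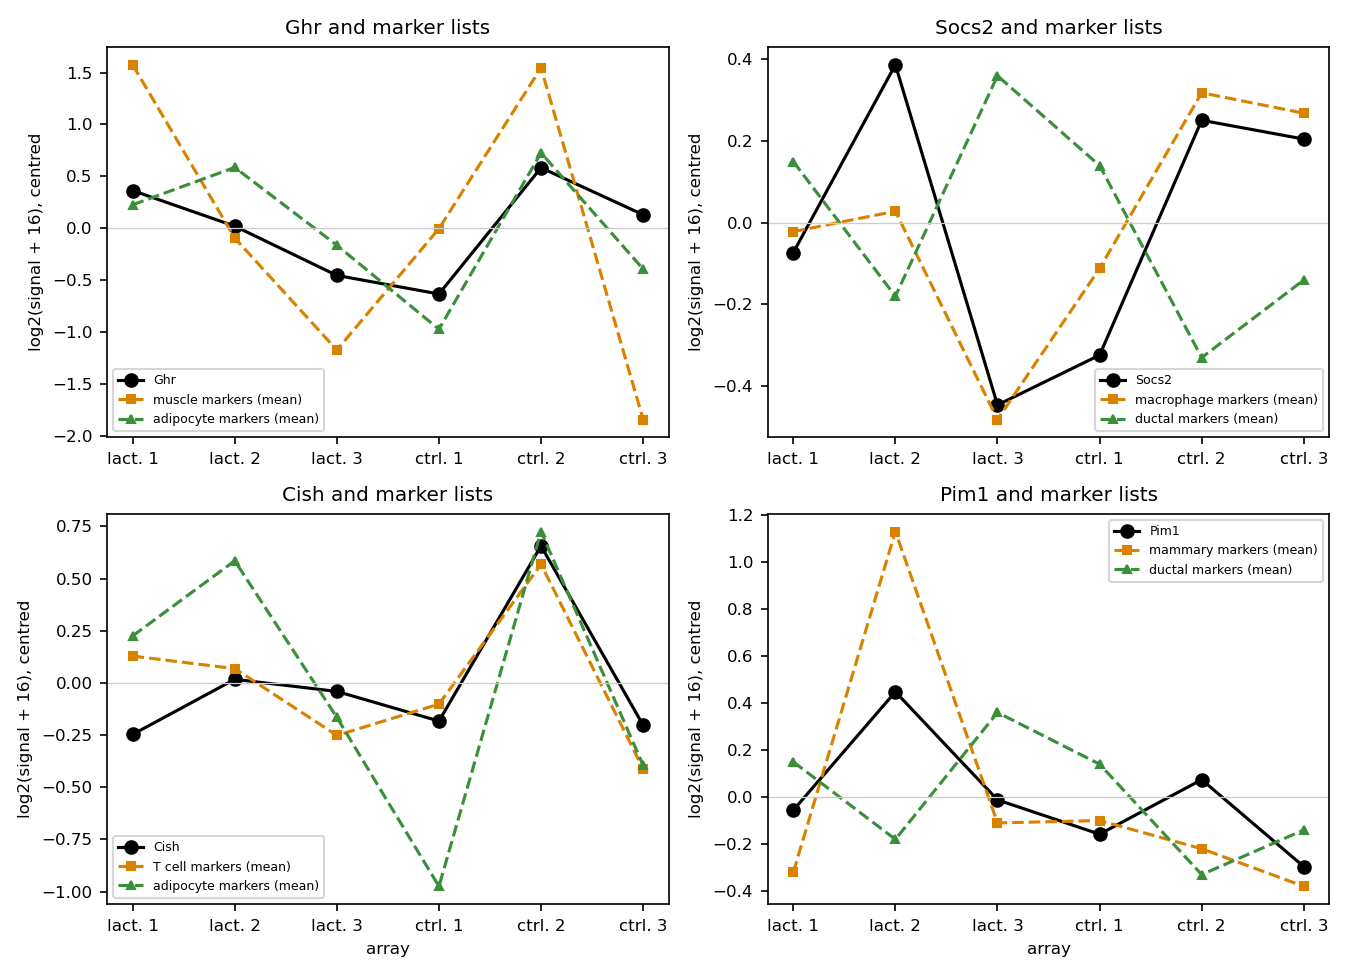
Level of Ghr, Socs2, Cish and Pim1 (black) on each array beside the mean of the marker lists named in the legends (dashed), all as log2(signal + 16) centred on their mean over the 6 arrays. Socs2 is high on lactation replicate 2 and control replicates 2 and 3, the 3 arrays lowest for ductal markers. Pim1 and the mean of the mammary markers, most of them under the level filter, both peak in lactation replicate 2.

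Other genes were ranked by likeness of pattern, as the root mean square difference of centred log2 values over the 6 arrays, among 11622 genes. The nearest to Socs2 were Itga4, an integrin of leukocytes, at 0.0502, Il10ra, the interleukin 10 receptor, at 0.0596 and Csf2rb at 0.0722, where the spread of Socs2 itself was 0.307. Csf2rb is the shared beta chain of the receptors for GM-CSF, interleukin 3 and interleukin 5, which signal through JAK2 and STAT5. Its signal was 1436, 1937 and 1263 in lactation and 1221, 1836 and 1842 in controls, high in the same 3 tumours as Socs2. Nearest to Cish were Gpt2 at 0.0851, Rasgrf2 at 0.12 and Angptl6 at 0.129, all highest in control replicate 2. Nearest to Socs3 were Ptrhd1 at 0.041, Natd1 at 0.0517 and Tmem258 at 0.054, with lactation replicate 3 lowest in each. These are descriptions, and the nearest 3 depended on single arrays and on the probe set rule. With probe sets averaged, the nearest 3 to each of Socs2, Cish and Socs3 shared 0 genes with those named. The number shared was also 0 for Socs2 without lactation replicate 2, for Cish without control replicate 2 or with no filter, and for Socs3 without lactation replicate 1 or 3 or control replicate 1 or 2.

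The wider pathway was followed in 5 lists of 65 genes, of which 48 were measured above the filter. 0 of the 48 passed the adjusted test, and 1, Il15, had an unadjusted p under 0.05 in limma. Over all tested genes 1.51% were higher and 0.766% lower at that unadjusted threshold. Of the 48 genes 20 had a higher and 28 a lower mean in lactation, and the median difference was -0.055 beside -0.005 over all genes tested. 1 of the 48, Ptpn1, had groups that did not overlap, where 6.9% of all tested genes did not. Prlr, the prolactin receptor, and some other listed genes were not analysed here.

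Of 12 ligands 2 were tested. Il15, a cytokine that sustains natural killer and memory T cells, measured 458.6 ± 146.1 in lactation and 285.4 ± 73.6 in controls. Its difference of 0.64 had a 95% interval from 0.03 to 1.25 and overlapping groups, and limma's adjusted p was 1. It was 0.403 without lactation replicate 3. Il7, a growth factor of lymphocytes, measured 677.1 ± 286.9 against 762.6 ± 387.0, and its difference of -0.16 turned to 0.238 or 0.218 when lactation replicate 3 or control replicate 1 was left out. The genes Prl, Gh and Il5, named after their values were seen, lay below the filter, with the hormone gene Prl between 6.96 and 29.8 in all tumours. The hormone gene Gh was higher in lactation without overlap, at 58.7, 106.7 and 77.8 against 51.3, 54.9 and 10.2. Il5 was lower without overlap, at 2.71 to 5.26 in lactation and 10.3 to 33.0 in controls. Groups of Prl and the other ligands below the filter overlapped. Over all probe sets 8.06% did not overlap.

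Of 15 receptors 11 were tested, 3 with a higher and 8 with a lower mean, and the median was -0.077. Leaving out lactation replicate 3 or control replicate 2 turned that median to 0.030 or 0.033, and leaving out control replicate 1 gave -0.272. Crlf2, a chain of the TSLP receptor, had a difference of -0.28 and Il5ra, the interleukin 5 receptor, of 0.28, which turned to -0.105 when lactation replicate 3 was left out. Leaving out control replicate 3 gave -0.081 for Crlf2. Of the other Janus kinases and STAT factors 7 of 8 were tested and 6 had a higher mean, with a median of 0.041, which was -0.023 without lactation replicate 2 and -0.005 with arrays centred on their medians. Stat2, a factor of type I interferon signalling, had 0.32 with a 95% interval from -0.23 to 0.86, which was 0.106 without lactation replicate 2 and 0.536 without lactation replicate 1. Tyk2, a kinase of interferon receptors, had 0.12, and -0.082 with its probe sets averaged.

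Of 14 other restraints on the pathway all were tested, 5 with a higher and 9 with a lower mean, and differences stayed between -0.14 and 0.13. Ptpn1, a tyrosine phosphatase that acts on JAK2, measured 1917, 1974 and 1673 in lactation and 1993, 2138 and 1977 in controls. Each lactation array lay below all controls, lactation replicate 2 by little, and the difference was -0.14 with a 95% interval from -0.35 to 0.08, and -0.065 without lactation replicate 3. Pias2, a SUMO ligase of the family that inhibits STATs, had 0.13, and 0.055 without lactation replicate 1.

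Of 16 other target genes 14 were tested, 5 with a higher and 9 with a lower mean, and the median was -0.075. The list was not sorted by induced and repressed genes, so this count and median do not measure STAT5 output. Akr1c18, which inactivates progesterone and is repressed through prolactin in the ovary, measured 82.8, 563.2 and 737.2 in lactation and 444.2, 647.0 and 1440 in controls. Its difference of -1.12 had a 95% interval from -2.99 to 0.74, and shrank to -0.208 or -0.656 when lactation replicate 1 or control replicate 3 was left out. Id1, an inhibitor of differentiation factors, had -0.39 with an interval from -1.0 to 0.21, and -0.191 without lactation replicate 2 and -0.675 without lactation replicate 1. Igf1, the growth factor induced by growth hormone and named after its value was seen, measured 2627, 2668 and 1671 against 1878, 2700 and 4176, with overlapping groups and a difference of -0.28.

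**Figure D4:**
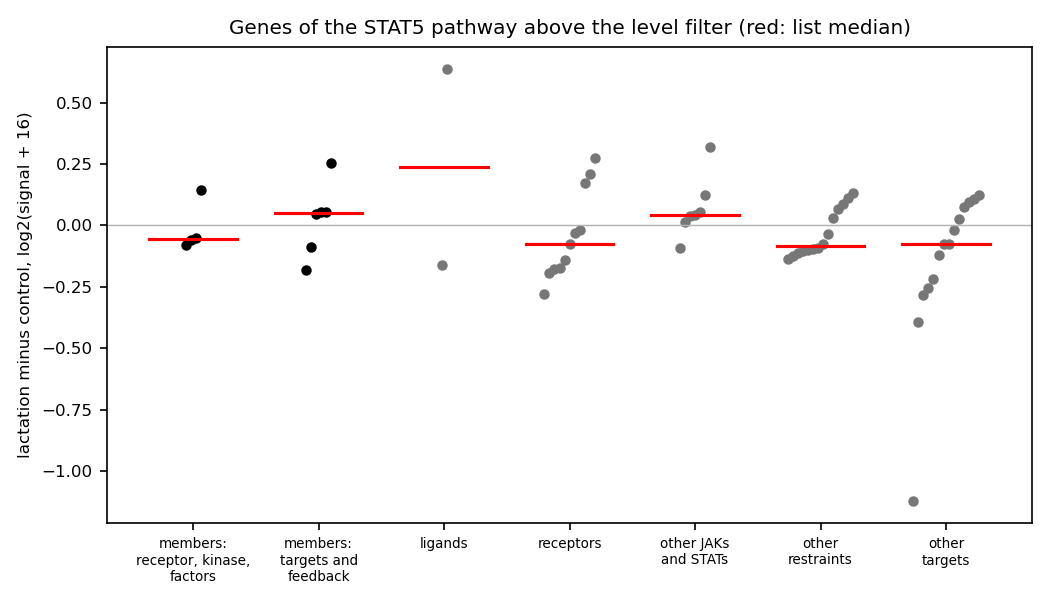
Log2 difference, lactation minus control, of each gene above the level filter (points), for the members by role and for the 5 other lists, with the list median in red. Il15 at 0.64 and Akr1c18 at -1.12 lie apart.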

How the data were processed

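The deposited table gives 1 intensity per probe set, from MAS5 per the submitters' processing notes (version: not given in the sources used here). All values were linear, with a 2% trimmed mean of 500.0 and medians of 99.3 to 111.0 on the 6 arrays. Biotin cRNA was hybridised to Affymetrix arrays per the labels' protocols, 1 per tumour. The number of arrays limits the precision, and the labels call the tumours biological replicates. Log2 ratios of 3' to 5' control probe sets were -0.427 to -0.403 for Gapdh and 0.291 to 0.384 for Actb.

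Values were taken as log2 of the signal plus 16, which understates changes of dim genes. Each of 18194 genes with a single symbol was read through the single probe set with the highest mean log2 value, and 11623 with at least 3 arrays at or above the array's median were tested in limma 3.58.1 (R 4.3.3; lmFit, eBayes with intensity trend, group as the only term, Benjamini-Hochberg at 0.05). A second fit took all 45101 probe sets without a filter. The fits were tested on simulated data. Named were all members, the 2 largest differences of each other list, and the 3 genes nearest in pattern to Cish, Socs2 and Socs3. Members and lists were chosen with earlier results of these data known. Alternatives changed normalization, added constant, filter, probe set rule, variance model, weights, the replicate number as a block and each array left out. Plots used Python 3.11.15 and matplotlib 3.10.9. Gene symbols were compared with RefSeq through Entrez identifiers, and 0 changed.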

Additional observations from a re-analysis of the deposited data

How the results depend on the processing

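In all alternatives run, 0 genes, 0 members, 0 member probe sets and 0 genes of the other lists passed an adjusted p under 0.05 in limma, the fit with replicate number as a replicate block included. The deviations of same-numbered arrays had correlations of 0.143, -0.083 and 0.267, and those of lactation replicate 1 and control replicate 2 had 0.458. With so few arrays in each group these correlations constrain one another, so they cannot decide whether the numbers pair the samples. With arrays centred on their medians the median of all genes was -0.051, the median of the other restraints was -0.129 in place of -0.084, and the difference of the dimmer Jak2 probe set was -0.031. Probe set 1438470_at of Socs2 was -0.016 there and after quantile normalization, and 1446085_at of Socs2 was -0.025 and -0.015. With array weights 1442586_at of Socs2 was 0.040. With probe sets of a gene averaged, Bcl2l1 was -0.067, Socs3 -0.026, Stat5b 0.091 and Tyk2 -0.082, and the median of the restraints was -0.043. The median of the ligands was 0.238, and -0.175 with no filter and -0.163 at the 70th percentile, where 10 and 1 ligands enter in place of 2. The cause of the other changes was not tested.

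When an array was left out, differences ranged from -0.053 to 0.113 for Bcl2l1, -0.327 to 0.103 for Cish, -0.381 to 0.228 for Ghr, -0.071 to 0.178 for Socs1, -0.304 to 0.113 for Socs2, -0.031 to 0.204 for Socs3, -0.153 to 0.004 for Stat5a, -0.105 to 0.625 for Il5ra and -0.417 to 0.238 for Il7, and the median of the restraints from -0.078 to -0.005. The other probe sets that changed sign ranged from -0.102 to 0.129 (1416576_at, Socs3), -0.239 to 0.066 (1456212_x_at, Socs3), -0.282 to 0.091 (1418507_s_at, Socs2), -0.105 to 0.123 (1438470_at, Socs2), -0.243 to 0.057 (1441476_at, Socs2), -0.170 to 0.197 (1442586_at, Socs2), -0.294 to 0.306 (1446085_at, Socs2), -0.192 to 0.358 (1420887_a_at, Bcl2l1), -0.094 to 0.093 (1421065_at, Jak2), -0.417 to 0.164 (1451501_a_at, Ghr) and -0.584 to 0.225 (1451871_a_at, Ghr). Over all alternatives run the differences of Jak2 and Pim1 stayed positive, from 0.081 to 0.202 and from 0.089 to 0.354. These are of the highest-mean probe set or of the mean of the probe sets. The second Pim1 probe set, 1423006_at, stayed negative, from -0.135 to -0.008, and the second of Jak2 changed sign as given above.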
